A study of Mus musculus with 6 samples.

Results

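The genes described here are those of the calcium, potassium, sodium and TRP (transient receptor potential) channels, with the receptors and store proteins that act beside them. They were taken by their symbols on the array and not by their values, though with earlier results of these data known. The families were Cacna, Cacnb, Cacng, Kcn, Scn, Trpa, Trpc, Trpm, Trpv, P2rx and P2ry. To these were added Itpr1 to Itpr3, Ryr1 to Ryr3, Stim1, Stim2 and Orai1. This gave 167 gene symbols, measured by 321 probes, of the 31508 symbols and 45281 probes on the array. Orai1 was not listed under that symbol. Some matches are not channels: Trpc4ap encodes a protein that binds TRPC4, P2ry5 is the older name of the lysophosphatidic acid receptor gene Lpar6, and the P2ry receptors couple to G proteins.

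The samples were tubes of cortical bone from the tibiae and femurs of 3 month old C57BL6 mice, a preparation in which osteocytes stay in their mineralized matrix. Muscle, growth plate and marrow had been removed and the surfaces digested with collagenase and trypsin, and all tubes were cultured overnight in serum before the experiment. A set of 3 control preparations received no treatment, and 3 others received parathyroid hormone (PTH 1-34) at 250 nM for 24 hours. Each preparation pooled about 10 bones from 4 to 5 mice and was hybridized to 1 Illumina mouse bead array. The comparison asks which of these genes differ in expression after the hormone. Total RNA of whole bone was measured, so fewer cells of a type and less RNA per cell cannot be told apart.

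Osteocytes respond to load and to PTH with changes in intracellular calcium. Voltage-gated calcium channels (a Cacna1 pore with Cacnb and Cacna2d accessory subunits), TRP channels and ATP-gated P2rx channels admit calcium from outside, whereas inositol trisphosphate receptors (Itpr) and ryanodine receptors (Ryr) release it from the endoplasmic reticulum and Stim proteins sense the emptied store. Potassium channels set the membrane potential against which these currents run, and P2ry receptors turn extracellular nucleotides, which bone cells release under strain, into G protein signals.

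A probe was taken as above background on an array when its detection p, which compares it with the negative control beads of that array, was under 0.05. The arrays were similar in this respect, with 34.2% to 38.4% of all probes above background and median signals from 111.3 to 128.9. Levels below are normalized signals on the log2 scale, comparable between arrays for 1 probe but not between probes. The 10 osteocyte marker genes that could be tested were above background, among them Dmp1, Mepe and Sost, and only Fgf23 of the 11 on the array was above background on no array. With PTH, 3 of these 10 fell, Tnfrsf11b, Mepe and Ptprz1, by limma's test at an adjusted p under 0.05 and a change of at least 1.5-fold. The median log2 fold change of the 10 was -0.95. At an unadjusted limma p under 0.05, 7 of the 10 were lower and 1 was higher. The higher one was Gp38, the gene of the early osteocyte marker E11. It was higher on every PTH array, with a log2 fold change of 0.70 (limma adjusted p = 0.0560), and was not called.

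Most channel genes lay at background in cortical bone. A gene was counted as detected in a group when 1 of its probes passed on 2 or more of the group's 3 arrays, which held for 39 of the 167 genes in control bone (23.4%) and for 38 (22.8%) with PTH. Over all symbols on the array the shares were 37.2% and 37%. The 2 groups shared 30 detected channel genes, and 120 were detected in neither. By number of arrays, 26 genes (15.6%) were above background on all 6, 42 (25.1%) on at least 3, 48 on 1 or 2, and 77 (46.1%) on none. Over all symbols, 30.6% were above background on all 6 arrays, 38% on at least 3 and 46.7% on none. The share on no array was thus near that of the whole array, but the 2 shares are not like for like. A gene passed through any of its probes, and the 167 channel genes had 321 probes, against 45281 for the 31508 symbols. On 1 or 2 arrays there were 48 of the 167 channel genes, beside 4825 of the 31508 symbols, a higher share for the channel genes. With the stricter limit of 0.01 for the detection p, 27 genes were detected in control bone and 28 with PTH.

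**Figure D1:**
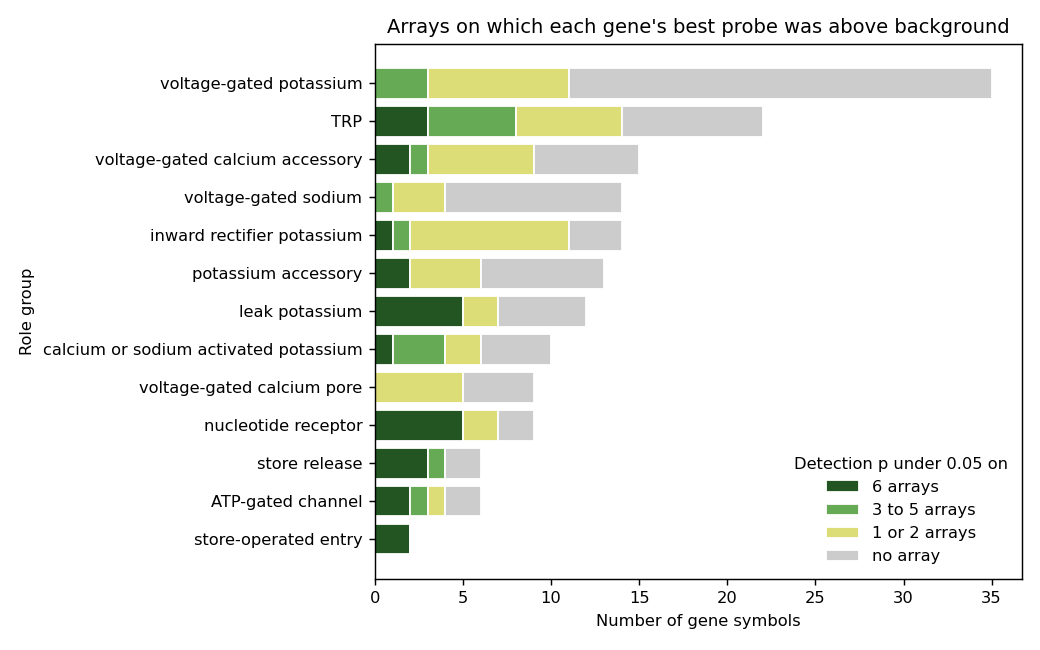
Number of channel genes in each role group (horizontal axis, gene symbols) by the number of arrays on which the gene's best probe had a detection p under 0.05, drawn as stacked bars. Both Stim genes and 5 of the 12 leak potassium genes were above background on all 6 arrays, whereas no voltage-gated calcium pore gene reached 3 arrays.

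Detection differed widely between the role groups, while 38% of all symbols were above background on at least 3 arrays. Genes of calcium stores and nucleotide signals were often measurable: both Stim genes, 4 of 6 store release genes, 5 of 9 P2ry receptors and 3 of 6 P2rx channels were above background on at least 3 arrays. Of the potassium genes, 5 of 12 leak channels (Kcnk) and 4 of 10 calcium- or sodium-activated channels reached that limit, against 3 of 35 voltage-gated channels, 2 of 14 inward rectifiers (Kcnj) and 2 of 13 accessory proteins. The same held for 8 of 22 genes named for TRP channels, 3 of 15 accessory calcium channel genes, 1 of 14 sodium channel genes and none of the 9 calcium channel pore genes.

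For 17 genes the count of arrays put them in 1 group alone. In control bone alone there were 9, among them Cacnb1, Kcnj11, Kcnmb1, Kcnn1, Kcnq1, P2rx7, P2ry12 and Ryr1. With PTH alone there were 8, among them Kcnh1, Kcnj5, Kcnj15, P2ry2, Trpc2, Trpc6 and Trpm6. Of these 17, only Trpc2 was above background on all 3 arrays of one group and on none of the other. The others differed by 1 or 2 arrays, and no test was made of these counts. Over all 31508 symbols, 934 were detected in control bone alone and 859 with PTH alone. The 9 and 8 of the 167 channel genes are higher shares, but the channel genes also had more probes per symbol.

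The pore genes of the L-type and T-type calcium channels, which the study is concerned with, were at background in both groups. Cacna1c, the L-type pore, had 6 probes, and 1 of their 36 readings on the 6 arrays passed the detection limit, on control array 3 (detection p 0.0385, signal 121.2). The median detection p of the 36 readings was 0.527. Cacna1h, the T-type pore, had 2 probes, and 1 of 12 readings passed, also on control array 3 (detection p 0.0385, signal 121.4). Both genes were thus above background on 1 control array and on no PTH array, too few to be tested, and no fold change is given for either.

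The related pore genes were not tested either. Cacna1d, a second L-type pore gene, passed on no array with either of its 2 probes, and its lowest detection p was 0.121. Cacna1g, a second T-type pore gene, passed on 1 array, PTH array 3, with 1 of its 3 probes. Over the 9 Cacna1 genes, 5 of 144 readings passed. A dim probe does not show that a transcript is missing: Canx, which nearly all cells use, and the osteoblast gene Runx2 were also above background on no array.

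**Figure D2:**
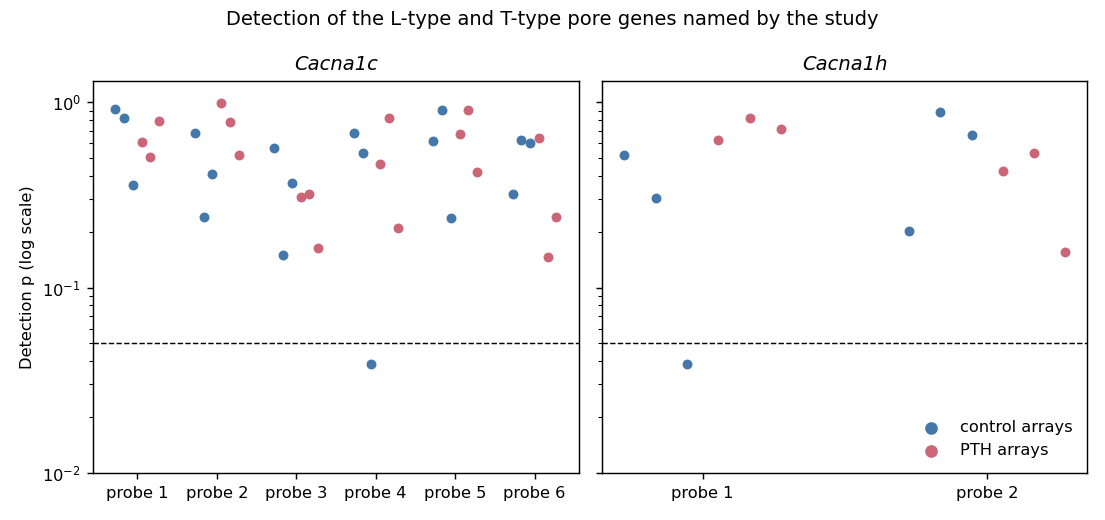
Detection p (vertical axis, log scale) of the 6 probes for Cacna1c and the 2 for Cacna1h on the 3 control and 3 PTH arrays, with each point 1 array. The dashed line marks 0.05, and 1 point of each gene, from control array 3, lies below it.

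The 42 genes above background on at least 3 arrays were tested with limma, among 11979 genes in all, each by its brightest tested probe. A gene was called when its limma p, adjusted over every probe in the fit, was under 0.05 and its change at least 1.5-fold. Of the 42, 1 was called, the nucleotide receptor gene P2ry13, which was lower with PTH. This is 2.38% of them, beside 1.73% of all genes tested (207 genes, 82 higher and 125 lower, that is 1.04% lower). When arrays were scaled to a common median instead, 60.6% of all calls were higher with PTH, against 39.6% here, and no channel gene was called.

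Below that threshold the channel genes were also near the background of the arrays. An unadjusted limma p under 0.05 was found for 8 of 42 (19%), 4 higher and 4 lower, beside 14.9% of all genes. The 2 groups of arrays did not overlap for 11 of 42 (26.2%), 3 above and 8 below control, beside 21.9% of all genes. Trpc2 counts in both and Ryr1 in the second, though each entered the test only through the arrays of 1 group. The median log2 fold change of the 42 was -0.07, that of all genes tested 0.01. The median size of the change, regardless of direction, was 0.18 for the channel genes and 0.16 for all genes. Log2 fold changes were below 0 for 25 of 42, and for 19 under median scaling, where the median of all genes stood at 0.12 and 27 of the 42 lay below it.

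**Figure D3:**
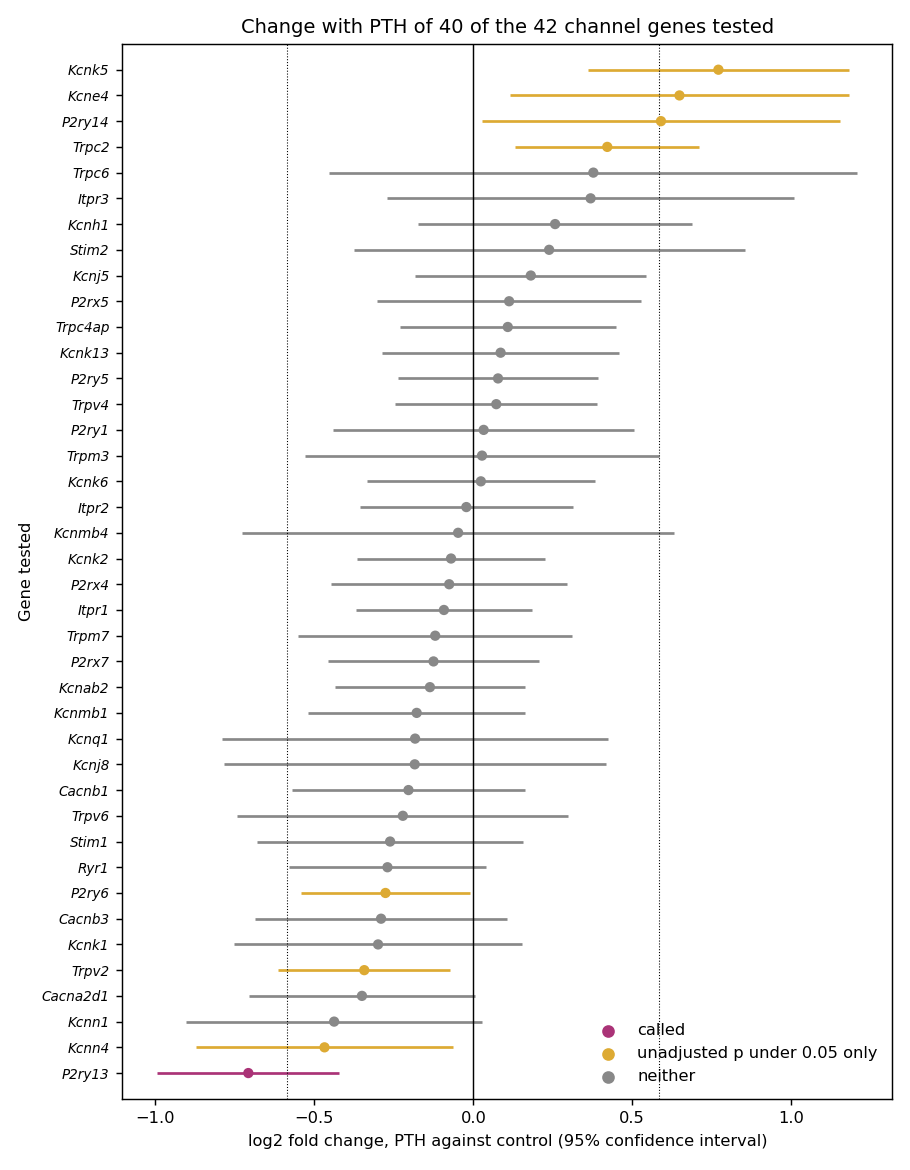
Log2 fold change with PTH (horizontal axis) of 40 of the 42 channel genes tested, with its 95% confidence interval as a bar. Dotted lines mark a 1.5-fold change. P2ry13, at -0.71, is the gene called, and Kcnk5, at 0.77, has the largest estimate above 0.

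P2ry13 encodes a G protein-coupled receptor for ADP. It read 7.20, 7.16 and 6.98 in control bone and 6.48, 6.35 and 6.39 with PTH. All PTH arrays lay below all control arrays. The mean fell from 7.11 ± 0.12 to 6.41 ± 0.06 (SD, n = 3 each), or 1.63-fold (log2 fold change -0.71, SE 0.12, 95% confidence interval -0.99 to -0.42), at a limma adjusted p of 0.0368. The call rested on all 6 arrays: leaving out any 1 of them gave limma adjusted p-values from 0.0747 to 0.150, with log2 fold changes from -0.77 to -0.67. Most calls over all genes were lost in those fits too, with 48 to 78 left of 207. The call was also lost with quantile normalization alone (log2 fold change -0.38) and with a larger offset (-0.54), in both by the fold minimum and not by the adjusted p. With median scaling (-0.61, limma adjusted p = 0.625) and with the replicate number as a block (limma adjusted p = 0.0910) it was lost by the adjusted p.

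Markers of other cells moved in the same arrays. Of 9 neutrophil and myeloid markers tested, 5 fell and 1, Mmp9, rose. The summed linear signal of the 10 such markers on the array was 57130 to 58380 in control bone and 40250 to 45200 with PTH, with Mmp8 above background on no array. Of 8 macrophage and osteoclast markers tested, 2 rose, Oscar and Acp5, which are known from osteoclasts. The macrophage genes Emr1, Csf1r, Cd68 and Lyz were not called, with log2 fold changes of -0.27, -0.04, -0.02 and -0.02, and Emr1 was lower on every PTH array. Cd14 and Ctsk were not called either, but were higher on every PTH array, with log2 fold changes of 0.39 and 0.36. The summed signal of the 9 on the array was 39720 to 40330 in control bone and 40260 to 46390 with PTH, with Calcr above background on no array. The part of these cells in the values of P2ry13 and the other receptors was not tested.

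In the RefSeq annotation of GRCm38.p6, P2ry13 lies on chromosome 3 in a cluster of related receptor genes, next to P2ry12 and near P2ry14. P2ry14, a receptor for UDP-sugars, read 5.63, 6.55 and 6.13 in control bone and 6.93, 6.71 and 6.43 with PTH. The groups overlapped, and its log2 fold change of 0.59 (SE 0.24) had a limma adjusted p of 0.316. P2ry14 is named here for its place in the cluster, after its values were seen. P2ry12, a second ADP receptor, passed the detection limit on 2 control arrays but no PTH array and was not tested.

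None of the other P2ry genes tested was called. P2ry6, a receptor for UDP, read 9.47, 9.56 and 9.56 in control bone and 9.32, 9.23 and 9.21 with PTH. All PTH arrays were lower, by a log2 fold change of -0.28 (SE 0.12), with a limma adjusted p of 0.322. P2ry2, a receptor for ATP and UTP, passed the detection limit on 2 PTH arrays but no control array. P2ry1, a further ADP receptor, and P2ry5, the lysophosphatidic acid receptor gene, had log2 fold changes of 0.03 and 0.08, with overlapping groups.

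The P2rx channels, which open on binding ATP, held none that passed the call. P2rx4 read 7.10, 7.53 and 7.23 in control bone and 7.12, 7.41 and 7.10 with PTH, a log2 fold change of -0.08 (95% confidence interval -0.45 to 0.29). P2rx7, close to background, read 4.85, 5.05 and 5.09 in control bone and 4.73, 4.82 and 5.06 with PTH, a log2 fold change of -0.13. In both genes the 2 groups overlapped.

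**Figure D4:**
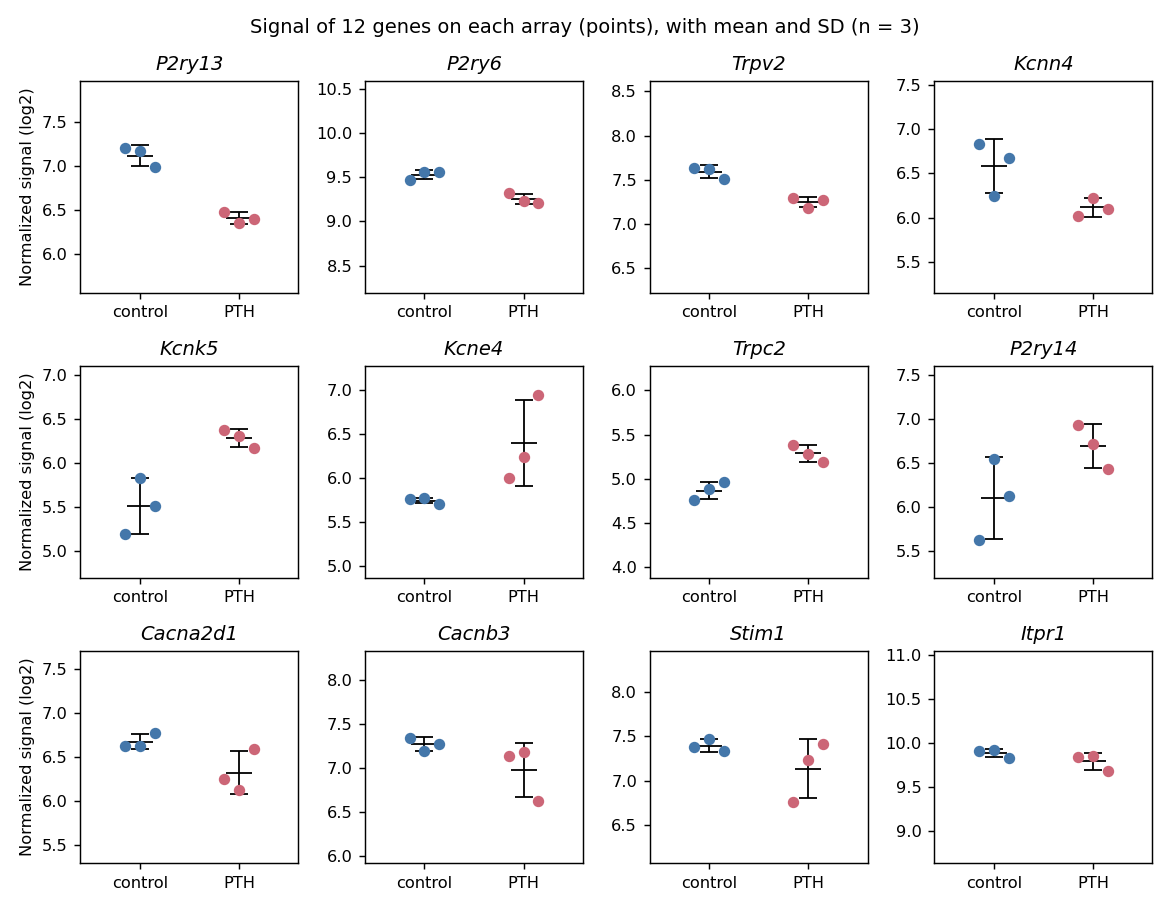
Normalized signal (log2, vertical axis) of 12 channel genes on each control and PTH array (points), with the mean and SD of the 3 arrays as bars. Every panel spans the same range of log2 units. P2ry13 and Kcnk5 show the widest gaps between groups, and the Itpr1 groups overlap.

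PTH signals through a receptor that raises cyclic AMP, and the cyclic AMP response element is the best known DNA element of that pathway. The promoter windows of the 3 channel genes with the largest estimates among those with non-overlapping groups are shown for that reason, from RefSeq on GRCm38.p6, from 250 bases before the gene start to 50 after it. They are P2ry13 at chr3:59210833-59211132 (minus strand), Kcnk5 at chr14:20181733-20182032 (minus strand) and Kcne4 at chr1:78816661-78816960 (plus strand), each written 5′ to 3′ on the gene's strand, with capitals marking the element's core TGACG.
P2ry13: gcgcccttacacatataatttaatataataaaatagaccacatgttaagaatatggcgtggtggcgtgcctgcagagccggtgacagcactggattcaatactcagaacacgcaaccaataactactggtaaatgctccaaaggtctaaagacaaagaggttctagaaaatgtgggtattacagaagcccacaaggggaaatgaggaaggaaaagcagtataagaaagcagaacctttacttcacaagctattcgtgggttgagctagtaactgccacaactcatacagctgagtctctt
Kcnk5: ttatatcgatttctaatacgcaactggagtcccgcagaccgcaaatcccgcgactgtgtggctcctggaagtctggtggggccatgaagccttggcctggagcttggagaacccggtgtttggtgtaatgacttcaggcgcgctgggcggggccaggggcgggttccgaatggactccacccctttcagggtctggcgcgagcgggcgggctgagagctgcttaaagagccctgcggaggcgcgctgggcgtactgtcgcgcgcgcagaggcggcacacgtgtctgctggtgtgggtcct
Kcne4: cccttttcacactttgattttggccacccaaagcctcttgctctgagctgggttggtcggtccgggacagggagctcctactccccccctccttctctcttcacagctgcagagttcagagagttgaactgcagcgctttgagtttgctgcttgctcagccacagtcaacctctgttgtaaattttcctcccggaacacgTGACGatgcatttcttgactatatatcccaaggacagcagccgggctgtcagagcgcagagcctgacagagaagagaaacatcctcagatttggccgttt
The core, searched on both strands, occurred once in the Kcne4 window, starting 50 bases before the gene start, and in neither of the others. Over the tested channel genes, 12 of 50 windows (of 35 genes with an entry) held it, that is 24%, beside 20.8% of all 32851 promoter windows of that length. The full element TGACGTCA, which contains the core, was in none of the 50 windows and in 1.79% of all. A match is a run of letters, not a site of binding.

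Among the leak potassium channels, Kcnk5 had the largest change. It encodes a channel that opens in alkaline conditions outside the cell. Its level was 5.19, 5.83 and 5.51 in control bone and 6.37, 6.30 and 6.17 with PTH. All PTH arrays were higher, with a log2 fold change of 0.77 (SE 0.18, 95% confidence interval 0.36 to 1.18), but the limma adjusted p was 0.0915. Kcnk5 had 2 further probes, each above background on 1 control array and no PTH array, so the difference rests on 1 probe.

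The rest of the leak channels lay between -0.30 and 0.09 in log2 fold change. Kcnk2, the stretch-sensitive TREK-1 channel, read 6.20, 6.20 and 6.21 in control bone and 6.02, 6.07 and 6.31 with PTH, a log2 fold change of -0.07 (95% confidence interval -0.36 to 0.22). Kcnk1 had 2 tested probes: the brighter gave -0.30 with overlapping groups, and the other -0.64 with a limma adjusted p of 0.101. Kcnk6 and Kcnk13 were measurable on all 6 arrays and differed by 0.02 and 0.09.

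Of the calcium-activated potassium channels, Kcnn4, the intermediate-conductance channel of red cells and immune cells, read 6.84, 6.24 and 6.67 in control bone and 6.02, 6.23 and 6.09 with PTH. The lowest control array and the highest PTH array were almost level. The log2 fold change was -0.47 (SE 0.17), with a limma adjusted p of 0.268. Red cell markers moved beside it: both tested, Hba-a1 and Hbb-b1, fell, and the summed linear signal of the 7 on the array was 8661 to 10100 in control bone and 2450 to 2725 with PTH, with 3 of them, Hbb-b2 and Epb4.2 included, above background on no array. Their part in the Kcnn4 value was not tested.

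Kcnn1, a small-conductance channel, and Kcnmb1 and Kcnmb4, accessory subunits of the large-conductance channel, gave log2 fold changes of -0.44, -0.18 and -0.05, with overlapping groups in each. The pore gene of that channel, Kcnma1, was above background on 1 array of each group and was not tested.

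Of the accessory potassium channel proteins, Kcne4, a subunit that dampens voltage-gated potassium currents, read 5.757, 5.766 and 5.704 in control bone and 6.002, 6.233 and 6.937 with PTH. All PTH arrays were higher, but by unequal amounts. The log2 fold change was 0.65 (SE 0.23) at a limma adjusted p of 0.247, and 0.36 without PTH array 3. Kcnab2 was lower on every PTH array by a small amount, a log2 fold change of -0.14 (limma adjusted p = 0.699).

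Voltage-gated potassium channels were near background throughout. Of the 3 tested, Kcnq1 and Kcnh1 had log2 fold changes of -0.18 and 0.26, and the 2 inward rectifiers tested, Kcnj8 and Kcnj5, of -0.18 and 0.18. The groups overlapped in each of these 4 genes.

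Among the TRP genes, 8 were tested and none was called. Trpv2 is a calcium-permeable channel found in many cells, macrophages included. Its level was 7.64, 7.63 and 7.51 in control bone and 7.29, 7.18 and 7.27 with PTH, with all PTH arrays lower. The log2 fold change was -0.34 (SE 0.12, 95% confidence interval -0.61 to -0.07), at a limma adjusted p of 0.227.

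Trpc2, known from pheromone-sensing neurons, passed the detection limit on all PTH arrays but on none of the control arrays. It read 4.76, 4.88 and 4.96 in control bone and 5.39, 5.28 and 5.19 with PTH, all low values. Since the control level is only a bound, the difference is given as at least 1.18-fold higher with PTH. This bound is the mean of the PTH arrays over the lowest signal that passed the detection limit on each control array. It makes no allowance for the spread between arrays. The limma adjusted p was 0.174, but Trpc2 entered the test only through its PTH arrays. Of the 11 neuron and glia markers on the array, 2 were tested and neither was called, and their summed signal was 422.6 to 469.3 in control bone and 455.7 to 502.7 with PTH, with 6 of them, Snap25, Syt1, Stmn2, Nefl and Sox10 included, above background on no array.

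Trpv4, a channel opened by osmotic and mechanical stimuli, read 5.34, 5.05 and 5.23 in control bone and 5.40, 5.29 and 5.14 with PTH, a log2 fold change of 0.07 (95% confidence interval -0.25 to 0.39). Trpm7, a magnesium and calcium channel joined to a kinase, read 5.26, 5.58 and 5.37 against 5.14, 5.65 and 5.07, a log2 fold change of -0.12. Their groups overlapped. Trpc1 was above background on 1 control array and was not tested. The 3 other channels tested, Trpv6, Trpm3 and Trpc6, gave -0.22, 0.03 and 0.38 with overlapping groups.

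The accessory subunits of voltage-gated calcium channels, which carry the pore to the membrane and tune it, had 3 of 15 genes tested, none of them called. Cacna2d1 read 6.62, 6.63 and 6.77 in control bone and 6.26, 6.12 and 6.59 with PTH. Every PTH array was lower, and the log2 fold change was -0.35 (SE 0.15), with a limma adjusted p of 0.349. A second tested probe for Cacna2d1 gave 0.15 with overlapping groups, so its probes disagree in direction.

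Cacnb3 read 7.35, 7.19 and 7.28 in control bone and 7.14, 7.18 and 6.63 with PTH, lower on every PTH array, most on PTH array 3. Its log2 fold change was -0.29 (SE 0.17), with a limma adjusted p of 0.500, and -0.12 without that array. Cacnb1, the beta subunit known from skeletal muscle, read 5.48, 5.43 and 5.02 against 5.04, 5.04 and 5.23, a log2 fold change of -0.20 with overlapping groups. Cacnb2 was above background on 1 array of each group and was not tested.

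Of the store release genes 4 were tested and none was called. Itpr1 read 9.91, 9.91 and 9.83 in control bone and 9.84, 9.85 and 9.68 with PTH. Its groups overlapped and the log2 fold change was -0.09, with a 95% confidence interval of -0.37 to 0.18 that leaves out a change of 1.5-fold in either direction. Itpr2 read 7.30, 6.92 and 7.23 against 7.22, 7.14 and 7.02, a log2 fold change of -0.02 (95% confidence interval -0.36 to 0.31).

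Itpr3 varied more between preparations, at 6.81, 6.82 and 5.95 in control bone and 7.25, 6.90 and 6.54 with PTH, and array 3 was the lowest of each group. Its log2 fold change was 0.37, with a 95% confidence interval of -0.27 to 1.01, and 0.08 without control array 3 or 0.19 without PTH array 1. Ryr1, the ryanodine receptor of skeletal muscle, had 1 of 4 probes above background on all control arrays and no PTH array, at 5.30, 5.13 and 4.99 in control bone and 4.78, 4.86 and 4.97 with PTH. Another of its probes passed on 1 PTH array. The bound, taken as for Trpc2, was 1.06-fold lower with PTH. The 95% confidence interval of the log2 fold change, -0.58 to 0.04, included no change (limma adjusted p = 0.411). Ryr1 also entered the test only through its control arrays. Of the 14 skeletal muscle markers, 2 were tested and neither was called. Tnni2 was lower on every PTH array (log2 fold change -0.55, limma adjusted p = 0.116), and Mylpf gave -0.08 with overlapping groups. The summed signal of the 14 markers was 393 to 404.4 in control bone and 366.2 to 377 with PTH. Of these markers 9, Acta1, Ckm, Myh1, Myh2, Myh4, Tnnt3, Tnnc2, Casq1 and Pvalb, were above background on no array. The part of muscle RNA in the Ryr1 value was not tested.

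The store sensors Stim1 and Stim2 were above background on all 6 arrays. Stim1 read 7.38, 7.48 and 7.34 in control bone and 6.76, 7.23 and 7.41 with PTH, so that the PTH arrays spread over the control range and below it. Its log2 fold change was -0.26 (95% confidence interval -0.68 to 0.16), and -0.07 without PTH array 1. Stim2 read 5.49, 6.11 and 6.08 against 5.66, 6.13 and 6.60, a log2 fold change of 0.24 (95% confidence interval -0.38 to 0.85). Without PTH array 3 it was 0.0028, without control array 1 0.036 and without PTH array 1 0.48.

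For 7 of the 42 genes more than 1 probe was tested. Beside Cacna2d1 and Kcnk1, P2rx4 had a second probe at -0.48 (limma adjusted p = 0.395) and P2ry14 a second at 0.29. Kcnk6 gave 0.02 and -0.15 and Stim2 0.24 and 0.15. The 3 probes of Trpc4ap gave 0.11, 0.17 and -0.41, the last with a limma adjusted p of 0.223. Probes of 1 gene thus differed in sign for Cacna2d1, Kcnk6 and Trpc4ap.

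Other genes of ion handling were examined by the same rule. Of 17 genes for calcium pumps and exchangers, 9 were tested and none was called. The largest estimate was that of Atp2a3, a calcium pump of the endoplasmic reticulum in blood cells, whose log2 fold change was -0.57 (limma adjusted p = 0.0824). Of 24 genes on the array for store and calcium sensing proteins, 9 were tested. Stac2, which encodes a protein that binds L-type channels, passed the detection limit on all PTH arrays but no control array. Its limma adjusted p was 0.0486, and its level was at least 1.24-fold higher with PTH, a bound under the 1.5-fold minimum. It entered the test only through its PTH arrays, and none of the other 8 was called.

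Of 26 further channel genes on the array, 12 were tested and 1 fell. This was Accn3, an acid-sensing sodium channel, at 8.42, 8.48 and 8.40 in control bone and 7.67, 7.45 and 7.39 with PTH. All PTH arrays were lower, with an estimate of -0.93 on the log2 scale (SE 0.13) and a limma adjusted p of 0.0158. The median log2 fold changes of these 3 lists were -0.01, -0.06 and -0.07, beside 0.01 for all genes.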

How the data were processed

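Cortical bone RNA of 3 control and 3 PTH preparations was measured on Illumina mouse bead arrays. The authors exported from GenomeStudio, per the labels, 1 table in which each probe has an intensity, not yet normalized between arrays, and a detection p-value on each array. Groups and replicate numbers came from the sample labels. The labels do not say whether preparations were separate experiments, so p-values measure the spread between these arrays. Precision is limited by having 3 arrays a group, for which the smallest p of an exact two-sided permutation test is 0.1.

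The deposited intensity values were background-corrected by normexp with the negative controls inferred from the detection p-values, given an offset of 16, quantile-normalized and put on the log2 scale (neqc in limma 3.58.1, R 4.3.3). Probes with a detection p under 0.05 on at least 3 of 6 arrays, 16214 of 45281, were fitted with lmFit and eBayes, two-sided, with Benjamini-Hochberg adjustment over all of them. A gene was represented by its brightest tested probe. The fit was tested on simulated data.

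The text names every channel gene called, those with an unadjusted p under 0.05 and non-overlapping groups, 25 chosen for their roles, and those above background on all arrays of 1 group and none of the other. Genes found on no array of a group are given as a bound. The labels do not say whether replicate numbers pair the arrays, and the reported fit did not pair them. Values of 2 tested genes are not reported here, though they count in the totals. The members and all gene lists were chosen with earlier results of these data known. Promoters came from RefSeq, which had an entry for 35 of the 42 genes tested. The alternatives tried were other background corrections, normalizations, filters, thresholds, probe rules and array weights, the replicate number in the fit, and leaving out each array.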

Additional observations from a re-analysis of the deposited data

How the results depend on the processing

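P2ry13 was the channel gene called, 1 of 42, and stayed so with cyclic loess, with no detection filter, with the strict filter, with the mean of all probes, with no fold minimum, with array quality weights and with arrays numbered 3 given their own term, chosen after seeing the data. The count of calls was 0 with quantile normalization alone (log2 fold change -0.38) and with an offset of 50 (-0.54), where P2ry13 passed the adjusted p but not the fold minimum, 0 with median scaling (-0.61, limma adjusted p = 0.625) and 0 with the replicate number as a block (limma adjusted p = 0.0910). It was 0 to 0 over the 6 fits that left out an array, and 2 at an adjusted p limit of 0.1, with Kcnk5 added. The cause of the loss under median scaling was not tested.

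The count at an unadjusted limma p under 0.05 was 8 of 42 in the reported fit, beside 1785 of 11979 genes in all. Under median scaling it was 4 of 42, beside 802 of 11979. With no detection filter all 167 genes were tested and the count was 16, beside 2961 of 31508. It was 4 to 8 with an array left out, beside 1388 to 1773 over all genes. The 47 genes detected in either group became 29 at a detection p limit of 0.01. Over all genes there were 207 calls, and over the settings that used all arrays from 44, with the replicate block, to 367, at the adjusted p limit of 0.1. Under median scaling Itpr1 (0.0692), Itpr2 (0.0851), Kcnk2 (0.0276) and P2rx4 (0.0314) turned above 0, though below the median of all genes of 0.12. With an array left out, the log2 fold change crossed 0 for Itpr2 (-0.139 to 0.0539), P2rx4 (-0.173 to 0.0463) and Trpv4 (-0.00577 to 0.144). Of 328 values over 21 genes and 16 settings, 311 kept direction and side of the adjusted p limit, 9 turned and 8, all of P2ry13, rose above that limit. The fold minimum was not counted here, and it ended the P2ry13 call in the 2 settings named above.

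Arrays with the same replicate number had deviations that correlated at 0.07, 0.06 and 0.27, and the block gave 44 calls over all genes against 207. The arrays numbered 3 deviated together. Deviations were taken from the mean of each group and sum to 0 within it, so these correlations depend on each other. The -0.13 to -0.14 of the arrays numbered 3 with the others of the opposite group is thus not a separate observation. For control array 1 the correlations with PTH arrays 1 and 2 were 0.067 and 0.073, for control array 2 0.0701 and 0.0636. No pairing could thus be read for the arrays numbered 1 and 2. Whether those numbered 3 were paired is not given by the labels. Cacna1c and Cacna1h were not tested, so they have no fold change under any setting. The slide as a block was not run, since no source used here names the slides. Of the 167 genes, 120 were detected in neither group, and for these the signal over background allows no statement on PTH.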
